A study of Homo sapiens with 6 samples.

Results

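The expression of 40 genes that cells switch on in response to interferon was followed in HEK293T, a line of human embryonic kidney origin that makes the SV40 large T antigen. The 40 symbols include the neighbouring pair PARP9 and DTX3L and the group SP110, SP140L and SP100, and each symbol was found in 1 of the 20169 gene rows of the count table. The list was chosen by gene name and chosen from genes whose CAG over PGK differences in these same libraries were known. PARP9-DTX3L and SP110-SP140L in particular were selected on those differences, so all values of these 40 genes are given as description and without a p-value.

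RNA was sequenced in 3 libraries of cells with a CAG landing pad and in 3 libraries of cells with a PGK landing pad. A landing pad is a site placed in the genome so that a reporter can later be put there. CAG is a synthetic promoter built on a cytomegalovirus enhancer and the chicken beta-actin promoter, and PGK is the promoter of phosphoglycerate kinase 1. All cells were grown alike, in DMEM with serum and antibiotics, and no label names an interferon, an infection or any other treatment. The design text calls the lines monoclonal, so a difference between the promoters and a difference between clones cannot be told apart, and no label says whether a line's libraries are from cultures of their own.

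Interferons are secreted when sensors in a cell meet foreign RNA or DNA. Type I interferons bind the receptor made of IFNAR1 and IFNAR2, whose kinases JAK1 and TYK2 phosphorylate transcription factors, among them STAT2. STAT2 and IRF9 are parts of the complex ISGF3, which binds the interferon-stimulated response element (ISRE) in the promoters of antiviral genes. PARP9 and DTX3L form a complex that joins an ADP-ribosyltransferase family protein with a ubiquitin ligase. SP110, SP140L and SP100 belong to the speckled protein family of nuclear body and chromatin proteins.

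The promoters of several of these genes are shown because the ISRE is the sequence by which the family is known, and because genes with a match stood at very different levels here. Sequences are from RefSeq on GRCh38.p14, 30 bases each, read 5′ to 3′ on the gene's own strand, with capitals marking a match to GAAANNGAAA or to its reverse complement TTTCNNTTTC. The PARP9 and DTX3L entries are the same 30 bases, chr3:122564322-122564351, read on the minus strand for PARP9 and on the plus strand for DTX3L. OAS3 is from chr12:112938321-112938350 on the plus strand and HERC5 from chr4:88456987-88457016 on the plus strand. IFITM1 is from chr11:313990-314019, ISG15 from chr1:1013377-1013406 and IFIT5 from chr10:89414546-89414575, all on the plus strand. MX1 is from chr21:41420559-41420588 and B2M from chr15:44711366-44711395, both on the plus strand. TAPBP, from chr6:33314076-33314105, and EPSTI1, from chr13:42992272-42992301, are on the minus strand and are not among the 40.
PARP9: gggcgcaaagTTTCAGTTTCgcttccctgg
DTX3L: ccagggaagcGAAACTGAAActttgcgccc
OAS3: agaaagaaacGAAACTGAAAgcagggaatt
HERC5: attacagTTTCCTTTTCCTTTTCgattccg
IFITM1: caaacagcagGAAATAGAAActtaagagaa
ISG15: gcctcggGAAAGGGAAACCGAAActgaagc
IFIT5: tagTTTCGATTTCttaagTTTCAGTTTCtg
MX1: gagcagaaatGAAACCGAAActgaattgtc
B2M: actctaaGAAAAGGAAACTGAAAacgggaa
TAPBP: tttggagGAAAGTGAAAGTGAAAggaggaa
EPSTI1: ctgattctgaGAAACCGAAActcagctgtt

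RefSeq windows of 300 bases, 250 before and 50 after a gene's start, were found for 32 of the 40 genes. The ISRE-type motif, searched on both strands, was in at least 1 window of 20 of these 32 genes (62.5%), while 4.38% of the 27305 genes with a window had it. By window, the shares were 55.8% of 43 windows of these genes and 3.57% of all 35116 windows. A second motif, the palindrome TTCNNNGAA, was in 25.6% of the windows of these genes and 7.66% of all windows, and it was counted apart from the ISRE type. A match does not show that a factor binds there. Sorted by the calls described further on, a match was present in 5 of 10 genes called higher in CAG, 4 of 6 called lower, 4 of 6 not called and 7 of 10 with too few reads to test. RefSeq windows of SP110, SP140L and SP100 held no ISRE-type match, and 1 of the SP110 windows held 1 match to TTCNNNGAA.

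Total counts per library ran from 22450538 to 23442542 in CAG and from 21896246 to 22889708 in PGK. Levels are in CPM, the count scaled by the TMM-adjusted size of its library, and 3 counts in 1 library equal 0.126 to 0.140 CPM. A gene is said to be called when its adjusted p in edgeR's quasi-likelihood test was under 0.05, with Benjamini-Hochberg adjustment over 13103 tested genes. Of these, 4139 were called higher in CAG and 3986 lower, which is 62.0% in all. KRT8, KRT18, PAX2 and VIM, taken as markers of this cell line, were counted in every library. EPCAM, another of these markers, had 26, 22 and 30 counts in CAG and 0, 0 and 2 counts in PGK. The 8 white blood cell markers summed to 1.19 to 2.08 CPM in CAG and 0.964 to 1.75 CPM in PGK. CD3E, MS4A1 and NKG7 were at 0 in all 6 libraries, and PTPRC had 1 count in 1 PGK library.

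Most of the 40 genes were weakly expressed or absent in both lines. MX2, OAS1, OAS2, IRF7 and XAF1 had no count in any library, and another 10 had too few counts to pass the low-count filter. Of the 25 tested, 12 were called higher in CAG, 6 were called lower and 7 were not called. The 18 called make 72% of the tested, beside 62.0% of all tested genes (31.6% higher and 30.4% lower), and since the list was selected on this contrast nothing is read from that share. The CAG and PGK libraries did not overlap for 17 of the 25, where 65.5% of all tested genes did not overlap. The median log2 fold change, CAG over PGK, was 0.19 over the 25 and -0.00 over all tested genes, and 14 of the 25 differed by less than 1.5-fold. PARP9, DTX3L, SP110, SP140L and OAS3 passed the low-count filter through their CAG counts, so this median is given as description. A change of at least 2-fold was fitted for 7 of the 25, of which 6 were higher in CAG (PARP9, DTX3L, SP110, SP140L, OAS3 and RIGI) and 1, IFITM1, was lower, while 8.67% of all tested genes passed 2-fold.

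**Figure D1:**
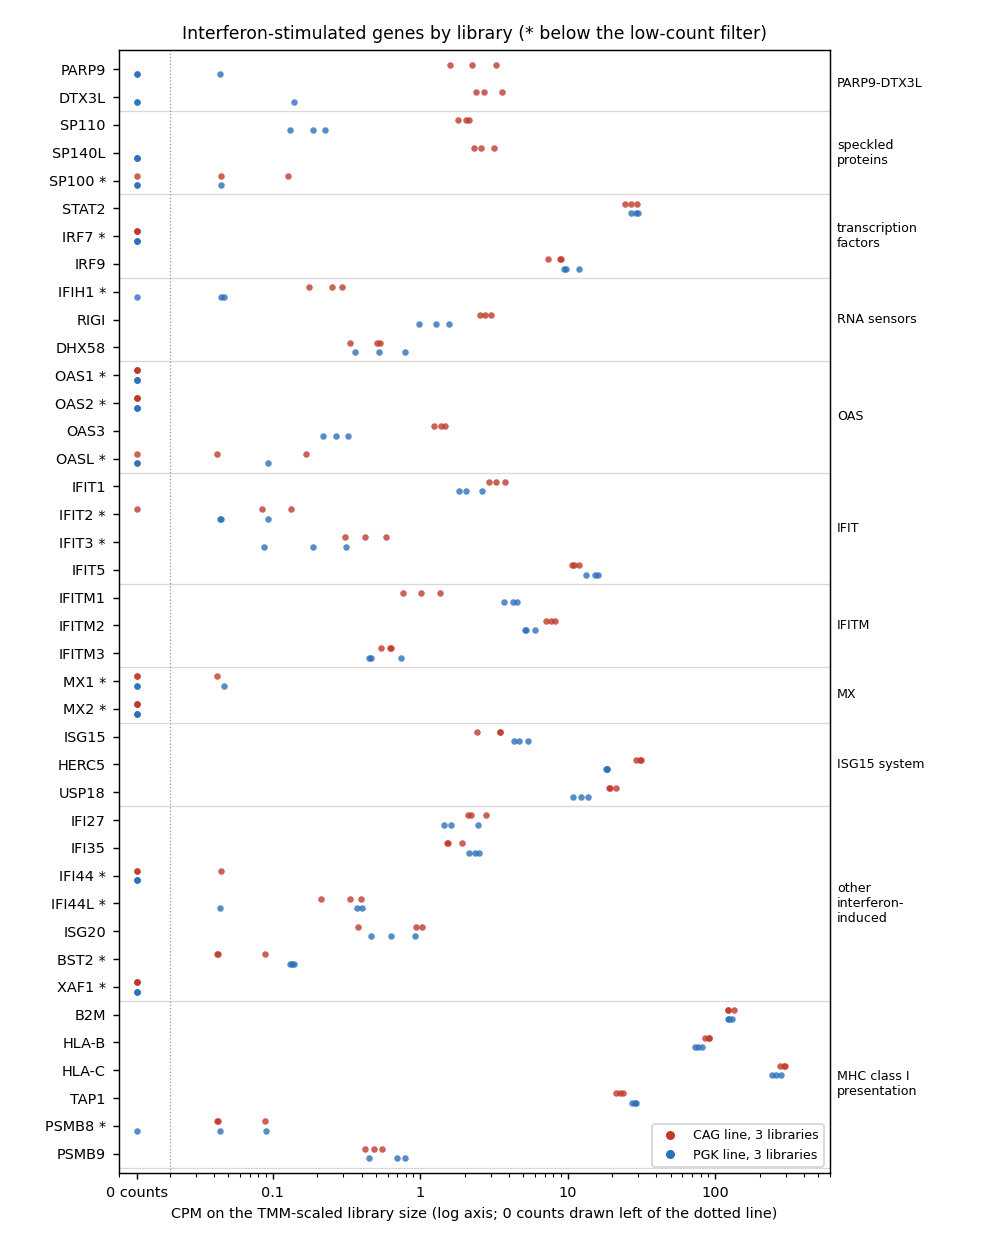
Level of each of the 40 genes in CPM on a log axis, 1 point per library, CAG drawn above PGK in each row and genes grouped by role. PARP9, DTX3L, SP110 and SP140L lie at 1 to 4 CPM in CAG and under 0.3 CPM or at 0 counts in PGK, while STAT2, B2M, HLA-B and HLA-C differ by less than 1.5-fold.

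PARP9 and DTX3L stand head to head on chromosome 3 and were counted almost only in CAG. PARP9, which binds ADP-ribose and partners DTX3L, had 36, 53 and 78 counts in CAG and 0, 0 and 1 counts in PGK. That is 2.37 ± 0.845 CPM in CAG and 0.0146 ± 0.0253 CPM in PGK (SD, n = 3 each). The ratio of summed counts, scaled for library size, was 159, with a 95% exact counting interval of 28.1 to 6310, and the fitted log2 fold change was 6.86 (SE 0.60).

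DTX3L, the ubiquitin ligase of the pair, had 54, 64 and 85 counts in CAG and 3, 0 and 0 counts in PGK. Its level was 2.89 ± 0.606 CPM in CAG and 0.0466 ± 0.0807 CPM in PGK (SD, n = 3 each). The count ratio was 64.3 (95% interval 21.7 to 315) and the log2 fold change 5.84 (SE 0.47). In both genes the lowest CAG library was far above the highest PGK library. All PGK counts of DTX3L were in replicate 1 and the PGK count of PARP9 was in replicate 3, and without that library the fitted values became 9.06 for DTX3L and 8.76 for PARP9, which depend on the prior count since PGK is then at 0. With limma-voom the log2 fold change of PARP9 was 6.15. The annotation has the genes overlap on opposite strands, and with no stated strand setting reads of one cannot be told from reads of the other in the overlap.

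SP110 and SP140L, near each other on chromosome 2, showed the same direction. SP110, a nuclear body protein, had 48, 48 and 43 counts in CAG and 4, 5 and 3 counts in PGK, which is 1.99 ± 0.167 CPM in CAG and 0.181 ± 0.0469 CPM in PGK (SD, n = 3 each). Its count ratio was 11 (95% interval 6.11 to 21.8) and its log2 fold change 3.42 (SE 0.30). SP140L had 58, 75 and 55 counts in CAG and none in any PGK library. With 2.69 ± 0.446 CPM in CAG (SD, n = 3), it was at least 19.8-fold higher in CAG than a floor of 3 counts per PGK library. SP100, the nuclear body gene next to SP140L, had only 1, 0 and 3 counts in CAG and 0, 1 and 0 counts in PGK, and SP140, which lies between SP110 and SP140L, had none.

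The genes around these loci were compared in annotation order. Among the 5 nearest tested genes on each side of PARP9-DTX3L, 3 were called higher in CAG, 6 lower and 1 was not called. Of all tested genes, 31.6% were called higher and 30.4% lower, and nothing is read from counts over 10 genes. The log2 fold changes of the 10 ran from -0.54 to 0.76, with a median of -0.28. The highest of these, SLC15A2, lost its call with DESeq2 (log2 fold change 0.757, DESeq2 adjusted p = 0.0807). Its log2 fold change was 0.651 without CAG replicate 1, 0.689 without CAG replicate 2, 0.725 without PGK replicate 2 and 0.538 without PGK replicate 3. The call was lost in each of these fits, with edgeR adjusted p from 0.0647 to 0.139. On the PARP9 side the next gene, KPNA1, an importin, had 125 ± 3.16 CPM in CAG and 99.9 ± 1.81 CPM in PGK (SD, n = 3 each), with a log2 fold change of 0.32 (SE 0.05, edgeR adjusted p = 1.16e-05). On the DTX3L side, PARP15 and PARP14, which is itself induced by interferon, had 1 count each in CAG and none in PGK. HSPBAP1, beyond them, was higher in CAG by 0.51 (log2, SE 0.10, edgeR adjusted p = 0.00021), and DIRC2, the next tested, was lower by a log2 fold change of -0.43 (SE 0.09, edgeR adjusted p = 0.000269). No other tested gene in this stretch reached 2-fold.

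Around SP110-SP140L-SP100, 3 of the 10 nearest tested genes were called higher in CAG, 1 lower and 6 were not called. Their median log2 fold change was 0.08. Of all tested genes 62.0% were called, and nothing is read from counts over 10 genes. AGFG1, among the higher calls, had a log2 fold change of 0.17. Its call was lost without CAG replicate 3 (log2 fold change 0.158) or PGK replicate 1 (log2 fold change 0.111). SLC16A14, a member of the monocarboxylate transporter family next to SP110, had 119, 119 and 131 counts in CAG and 1, 6 and 7 counts in PGK. Its level was 5.27 ± 0.227 CPM in CAG and 0.208 ± 0.141 CPM in PGK (SD, n = 3 each), with a log2 fold change of 4.61 (SE 0.27, edgeR adjusted p = 5.43e-11). Along the chromosome, SLC16A14, SP110 and SP140L were above their PGK levels in all 3 CAG libraries, and SP140 within that run had no counts. TRIP12, a ubiquitin ligase gene on the SLC16A14 side, had a log2 fold change of 0.02 (SE 0.06). CAB39, on the SP100 side, was higher by 0.26 (SE 0.06, edgeR adjusted p = 0.00109) and ITM2C beyond it had -0.44 (SE 0.05, edgeR adjusted p = 5.35e-07). The RefSeq windows of SLC16A14 and SP140 held no ISRE-type match.

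**Figure D2:**
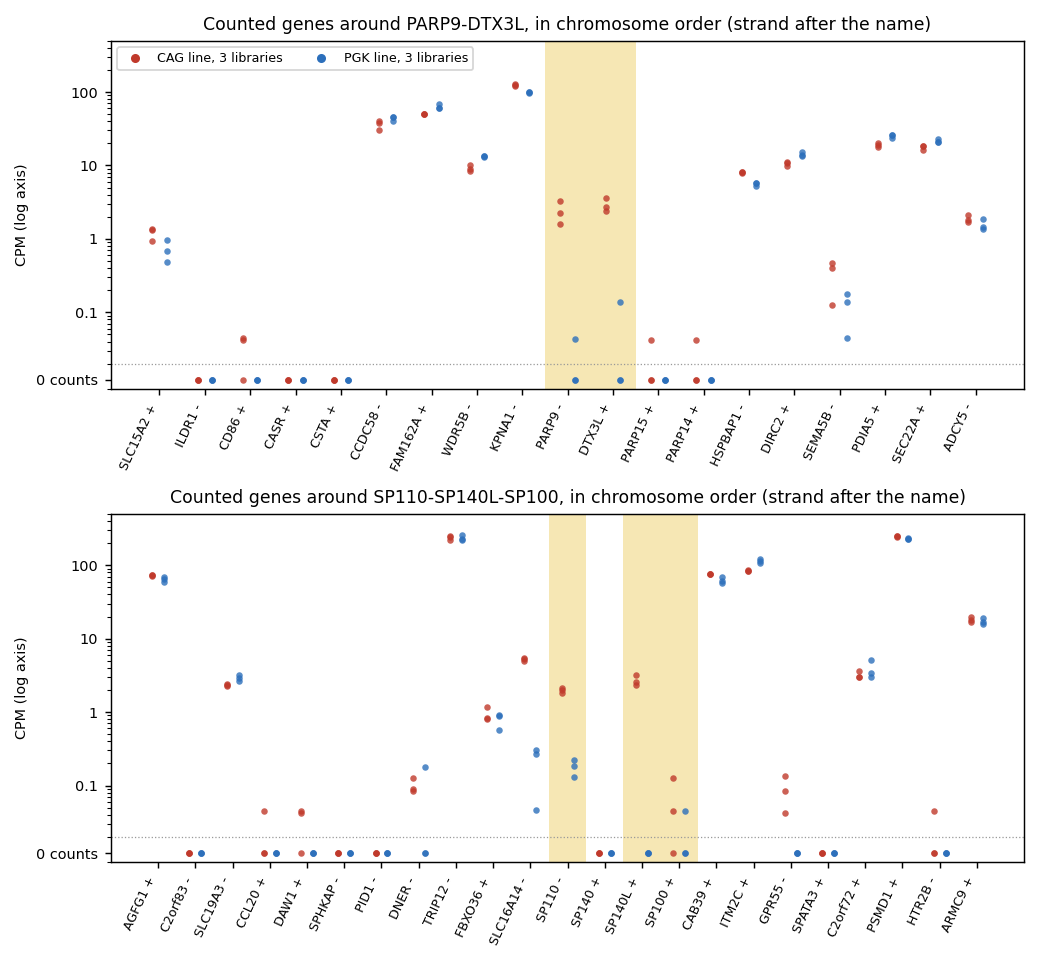
CPM on a log axis for the counted genes around both loci, in chromosome order with the strand after each name, CAG left of PGK for each gene and 1 point per library. The shaded columns are the genes of the list. PARP9 and DTX3L, and SLC16A14, SP110 and SP140L, have CAG points well above the PGK points, with no overlap, while KPNA1, HSPBAP1, TRIP12 and CAB39 differ by less than 2-fold.

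STAT2 and IRF9, which carry the interferon signal to the promoter, were counted in every library of both lines, and IRF7 in none. STAT2 had 609, 696 and 584 counts in CAG and 645, 650 and 616 counts in PGK, with a log2 fold change of -0.09 (SE 0.07), and its libraries overlapped. IRF9, the DNA-binding part of ISGF3, had 201, 212 and 176 counts in CAG and 257, 216 and 217 counts in PGK. Its log2 fold change was -0.30 (SE 0.11) and it was called lower in CAG, but the call was lost without CAG replicate 3 (log2 fold change -0.214) or without PGK replicate 1 (-0.192). IRF7, the factor that amplifies a type I response, had no count in any library.

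Among the sensors of viral RNA, RIGI was higher in CAG. It had 68, 60 and 66 counts in CAG and 21, 35 and 29 counts in PGK, that is 2.78 ± 0.237 CPM in CAG and 1.27 ± 0.298 CPM in PGK (SD, n = 3 each; log2 fold change 1.12, SE 0.20). IFIH1, which encodes the sensor MDA5, was below the filter with 4, 6 and 7 counts in CAG and 1, 1 and 0 counts in PGK. Its count ratio was 8.08 (95% interval 1.92 to 72.1). DHX58, which encodes the regulator LGP2, had 12, 12 and 8 counts in CAG and 17, 8 and 12 counts in PGK, and its libraries overlapped.

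Of the OAS enzymes, which make the second messenger that activates RNase L, only OAS3 was tested. It had 28, 35 and 33 counts in CAG and 7, 6 and 5 counts in PGK, with 1.37 ± 0.121 CPM in CAG and 0.272 ± 0.0535 CPM in PGK (SD, n = 3 each). Its log2 fold change was 2.32 (SE 0.30), and all CAG libraries were above all PGK libraries. OAS1 and OAS2, the genes beside OAS3 on chromosome 12, had no counts, and OASL, a family member without that enzyme activity, had 0, 4 and 1 counts in CAG and 2, 0 and 0 in PGK.

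The IFIT proteins bind foreign RNA, and their genes lie together on chromosome 10. IFIT1 had 74, 69 and 90 counts in CAG and 44, 58 and 42 counts in PGK (log2 fold change 0.62, SE 0.17). IFIT5 went the other way, with 241, 282 and 265 counts in CAG and 330, 298 and 365 counts in PGK (log2 fold change -0.41, SE 0.09). Neither gene's libraries overlapped between the lines. IFIT3 had 7, 10 and 14 counts in CAG and 4, 7 and 2 in PGK, and IFIT2 had 3, 2 and 0 in CAG and 2, 1 and 1 in PGK, both below the filter. IFIT1, IFIT2 and IFIT3 overlap LIPA on the opposite strand, a gene with 1624, 1666 and 1739 counts in CAG and 1968, 2200 and 2019 counts in PGK, and IFIT genes resemble each other, so their counts are uncertain.

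The IFITM proteins sit in membranes and block entry of enveloped viruses. IFITM1 had 31, 18 and 24 counts in CAG and 97, 82 and 97 counts in PGK, which is 1.05 ± 0.308 CPM in CAG and 4.15 ± 0.425 CPM in PGK (SD, n = 3 each). Its log2 fold change of -1.99 (SE 0.20) was the lowest among the 25 tested genes. IFITM2 had 173, 193 and 169 counts in CAG and 128, 116 and 117 counts in PGK (log2 fold change 0.49, SE 0.11). IFITM3 had 14, 15 and 13 counts in CAG and 10, 10 and 17 in PGK, and its libraries overlapped. These 3 genes are near-identical in part and IFITM1 and IFITM2 overlap on the same strand, so how reads were divided among them is uncertain.

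ISG15, a ubiquitin-like protein, was lower in CAG, while its ligase and its protease were higher. ISG15 had 79, 82 and 58 counts in CAG and 115, 96 and 107 counts in PGK, that is 3.14 ± 0.61 CPM in CAG and 4.79 ± 0.528 CPM in PGK (SD, n = 3 each; log2 fold change -0.61, SE 0.15). HERC5, the ligase that attaches ISG15, had 700, 737 and 692 counts in CAG and 388, 409 and 421 counts in PGK (log2 fold change 0.73, SE 0.07). USP18, which removes ISG15 and restrains the type I receptor, had 431, 503 and 464 counts in CAG and 234, 306 and 280 counts in PGK (log2 fold change 0.70, SE 0.09). For all 3 genes the lines did not overlap. USP18 has a near-identical copy, USP41, which can share its reads. USP41 itself had 1, 1 and 1 counts in CAG and 2, 1 and 0 counts in PGK.

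The remaining interferon-induced genes differed little or were barely counted. IFI27 had 50, 66 and 50 counts in CAG and 53, 32 and 37 in PGK (log2 fold change 0.37, SE 0.21), and ISG20, an exonuclease, had 23, 22 and 9 in CAG and 10, 14 and 21 in PGK (0.19, SE 0.36). IFI35 had 35, 36 and 46 counts in CAG and 46, 52 and 57 in PGK (log2 fold change -0.48, SE 0.18), and although edgeR called it lower the call was lost without CAG replicate 1 (-0.433), CAG replicate 2 (-0.415), PGK replicate 2 (-0.477) or PGK replicate 3 (-0.425), and with DESeq2 (-0.483). BST2, the tetherin that holds budding virions, had 2, 1 and 1 counts in CAG and 3, 3 and 3 in PGK. IFI44L had 9, 5 and 8 counts in CAG and 8, 9 and 1 in PGK, IFI44 had 1 count in all, and MX1 had 1 count in each line. MX1, whose promoter match is printed above, was thus under the floor of 3 counts in every library.

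HLA-C, B2M and HLA-B, the chains of the MHC class I molecule that presents peptides, were the most abundant of the 40 in CPM. B2M, the light chain of the class I molecule, had 127 ± 7.08 CPM in CAG and 126 ± 3.65 CPM in PGK (SD, n = 3 each; log2 fold change 0.00, SE 0.05). HLA-B had 89.0 ± 2.82 CPM in CAG and 76.7 ± 4.33 CPM in PGK (log2 fold change 0.22, SE 0.05). HLA-C had 289 ± 11.0 CPM in CAG and 260 ± 18.0 CPM in PGK (0.15, SE 0.05), with overlapping libraries. The HLA-C call was lost without CAG replicate 1 (log2 fold change 0.142), CAG replicate 3 (0.128), PGK replicate 2 (0.104) or PGK replicate 3 (0.145), and reads of the class I genes can be shared among them. TAP1, a chain of the peptide pump, had 22.4 ± 1.28 CPM in CAG and 28.2 ± 0.993 CPM in PGK (SD, n = 3 each; log2 fold change -0.33, SE 0.07).

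PSMB8 and PSMB9, catalytic subunits of the immunoproteasome, were scarce. PSMB8 had 2, 1 and 1 counts in CAG and 0, 2 and 1 in PGK, and PSMB9 had 11, 13 and 10 in CAG and 15, 10 and 18 in PGK. Per kilobase of exon, PSMB8 stood at 0.0192 CPM in CAG and 0.0149 CPM in PGK, and PSMB9 at 0.158 CPM in CAG and 0.21 CPM in PGK. PSMB5, the constitutive subunit that PSMB8 replaces, stood at 99.0 CPM per kilobase in CAG and 109 in PGK, and PSMB6, which PSMB9 replaces, at 94.0 in CAG and 115 in PGK. PSMB10, the immunoproteasome subunit that replaces PSMB7, stood at 12.3 CPM per kilobase in CAG and 14.8 in PGK, and PSMB7 at 88.1 in CAG and 97.6 in PGK. PSMB9 overlaps PSMB8 and TAP1 on the opposite strand.

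Ranked by level per kilobase of exon in CAG, HLA-C came first with 115 CPM per kilobase, then HLA-B with 29.2, B2M with 20.8, USP18 with 9.38, HERC5 with 6.39, IFITM2 with 4.96, TAP1 with 4.67, STAT2 with 4.42, ISG15 with 3.33 and IFIT5 with 2.80. PARP9, DTX3L, SP110 and SP140L stood at 0.265, 0.493, 0.29 and 0.475 CPM per kilobase in CAG. These 4 genes, with the largest fold changes of the list, thus had low levels even in CAG. Summed over the 40 genes, the level was 661.7, 646.7 and 675.2 CPM in CAG and 633.4, 575.3 and 596.5 CPM in PGK, mostly from the class I group. Without that group it was 132.7, 140.1 and 127.7 CPM in CAG and 113.2, 108.5 and 107.4 CPM in PGK.

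**Figure D3:**
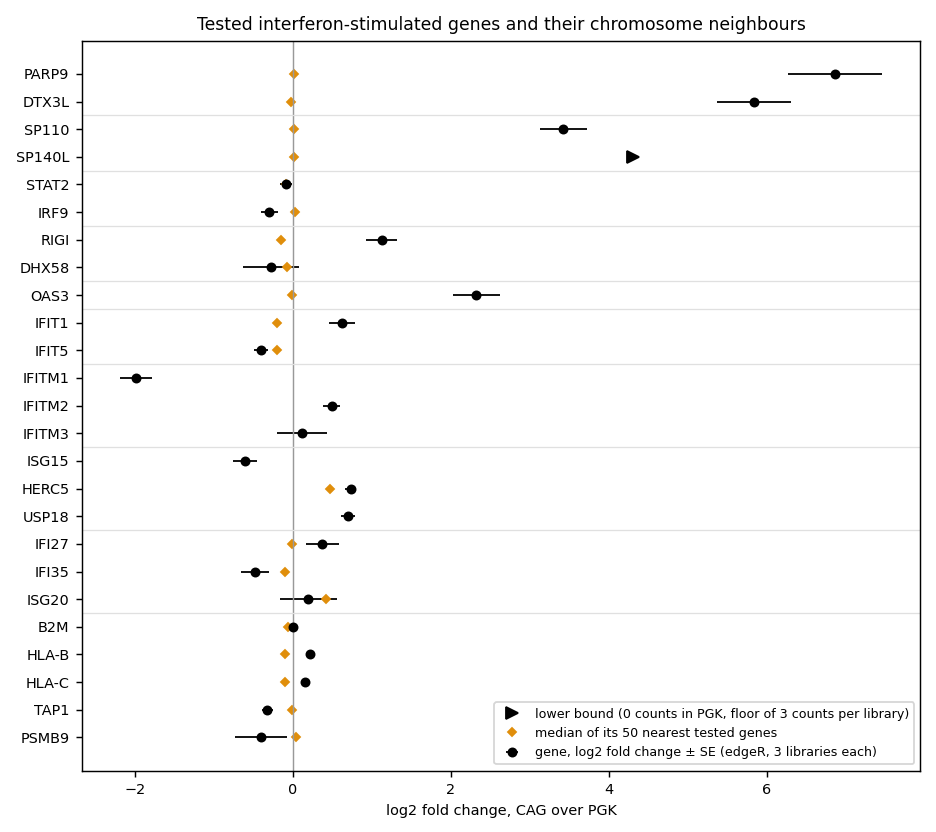
Log2 fold change, CAG over PGK, of the 25 tested genes, with the standard error as a bar and the median of the 50 nearest tested genes on the chromosome as a diamond where a full set of 50 exists. SP140L, with no counts in PGK, is drawn as a triangle at its lower bound. PARP9, DTX3L, SP110, SP140L, OAS3 and IFITM1 are the points farthest from 0, and the HERC5 diamond at 0.47 lies beside its gene at 0.73.

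The tested genes were also set beside their chromosome surroundings. The median log2 fold change of the 50 nearest tested genes was 0.01 around PARP9, -0.03 around DTX3L, 0.01 around SP110 and SP140L, -0.01 around OAS3 and -0.15 around RIGI. The median around HERC5 was 0.47 beside its own 0.73, that around ISG20 was 0.42 beside its own 0.19, and that around IFIT5 was -0.20 beside its own -0.41. The HERC5 neighbour HERC6, another gene induced by interferon, had 0.64 (SE 0.14, edgeR adjusted p = 0.000551). No test set a gene against its neighbourhood.

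The wider interferon pathway was described with 147 further genes in 8 lists, of which 94 were tested, 45 were called higher in CAG (background 31.6%) and 23 lower (background 30.4%). The 68 called make 72.3%, beside 62.0% of all tested genes, and the median log2 fold change was 0.14. The share called was 81.8% of receptor and signal carrier genes, 50% of regulatory factors and of sensing genes and 66.7% of negative regulators. It was 71.9% of further interferon-stimulated genes, 88.9% of other antigen presentation genes and 100% of constitutive proteasome subunits. These lists were chosen with results of this contrast known, so nothing is read from the shares. Most genes named below from these lists were taken because they were called with the largest changes. Their adjusted p-values were thus under 0.05 by that rule and are given as description. No interferon gene passed the filter. Of 10 interferon genes 8 had no count in any library, IFNA2 had 1 count in CAG, and IFNE had 16 counts in CAG and 3 in PGK.

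Of the 11 receptor and signal carrier genes, all tested, 6 were called higher in CAG and 3 lower. The receptor subunits IFNAR1 and IFNAR2 had log2 fold changes of 0.34 (SE 0.05, edgeR adjusted p = 1.99e-05) and 0.62 (SE 0.07, edgeR adjusted p = 4.20e-07). JAK1 had 0.70 (SE 0.05, edgeR adjusted p = 3.12e-09), where the 50 genes around it had a median of 0.67, and the interferon gamma receptor subunit IFNGR2 had 0.67 (SE 0.06, edgeR adjusted p = 3.26e-08). TYK2 was lower, with -0.42 (SE 0.05, edgeR adjusted p = 1.89e-06) and a neighbourhood median of -0.38. The interferon lambda receptor IFNLR1 was lower too, with -0.67 (SE 0.10, edgeR adjusted p = 8.26e-06) and a neighbourhood median of -0.54. Thus both type I receptor subunits and 1 of their kinases were higher in CAG, while the other kinase was lower.

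Of the 4 tested interferon regulatory factors, IRF2 was called higher in CAG (log2 fold change 0.52, SE 0.15, edgeR adjusted p = 0.00662) and IRF8 lower (-0.39, SE 0.13, edgeR adjusted p = 0.0113). The IRF2 call was lost without CAG replicate 3 (0.411, edgeR adjusted p = 0.0521) and the IRF8 call without CAG replicate 2 (-0.270, edgeR adjusted p = 0.0791). IRF3, the factor activated downstream of the sensors, had -0.15 (SE 0.06, edgeR adjusted p = 0.0512) and was not called, but it was called without CAG replicate 1 (-0.185) or PGK replicate 2 (-0.222). It was also called with RLE size factors (edgeR adjusted p = 0.0482), with no low-count filter (edgeR adjusted p = 0.0226) and with a replicate block (edgeR adjusted p = 0.00609). In the sensing list, 5 of 14 tested genes were called higher and 2 lower. MYD88, the adaptor of most Toll-like receptors, had 0.879 ± 0.38 CPM in CAG and 4.28 ± 0.623 CPM in PGK (SD, n = 3 each; log2 fold change -2.27, SE 0.23, edgeR adjusted p = 1.21e-07). STING1, the adaptor of DNA sensing, was higher, with 2.06 ± 0.274 CPM in CAG and 1.13 ± 0.242 CPM in PGK (log2 fold change 0.87, SE 0.21, edgeR adjusted p = 0.00183), and AZI2 had 0.41 (SE 0.06, edgeR adjusted p = 4.37e-06). The neighbourhood median was 0.31 around MYD88, -0.03 around STING1 and 0.31 around AZI2.

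Among 12 tested negative regulators, 5 were called higher in CAG and 3 lower. PTPN6, a phosphatase of blood cells, had 1.04 (SE 0.28, edgeR adjusted p = 0.00364), IRF2BP1 had 0.59 (SE 0.07, edgeR adjusted p = 3.60e-07) and PIAS4 had -0.49 (SE 0.07, edgeR adjusted p = 3.91e-06). The neighbourhood median was 0.01 around PTPN6, 0.48 around IRF2BP1 and -0.34 around PIAS4. Among 32 tested further interferon-stimulated genes, 19 were called higher in CAG and 4 lower, beside 31.6% and 30.4% of all tested genes. Their median log2 fold change was 0.40, and that of all tested genes was -0.00. Some of the 32, among them EPSTI1, SAMD9 and DDX60, passed the low-count filter through their CAG counts. Another 28 genes of this list were below the filter. Nothing is therefore read from this split or this median. EPSTI1 had 88, 75 and 64 counts in CAG and 6, 7 and 7 counts in PGK, with a log2 fold change of 3.41 (SE 0.26, edgeR adjusted p = 2.44e-09) and a neighbourhood median of 0.53. SAMD9, an antiviral translation inhibitor, had 1.77 (SE 0.46, edgeR adjusted p = 0.00336; 2.81 without PGK replicate 2) and DDX60, a helicase, had 1.67 (SE 0.33, edgeR adjusted p = 2.72e-04). The neighbourhood median was 0.08 around SAMD9 and 0.40 around DDX60. Of the 60 further interferon-stimulated genes, 12 had no count in any library.

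Among 18 tested genes of antigen presentation outside the 40, 9 were called higher in CAG and 7 lower. TAPBP, which encodes tapasin, the chaperone that links class I molecules to the peptide pump, had 172, 174 and 203 counts in CAG and 9, 3 and 6 counts in PGK. Its level was 7.84 ± 0.6 CPM in CAG and 0.272 ± 0.142 CPM in PGK (SD, n = 3 each), with a log2 fold change of 4.83 (SE 0.22, edgeR adjusted p = 2.32e-12). HLA-DRB1, a class II chain, had 1.69 (SE 0.17, edgeR adjusted p = 5.64e-08), and HLA-DPA1 had 1.17 (SE 0.17, edgeR adjusted p = 1.13e-05). Of other class II genes in the list, HLA-DPB1 was called higher too (0.86, SE 0.22). HLA-DRA, CD74 and CIITA were below the filter, with 1, 1 and 0 summed counts in CAG and 2, 3 and 4 in PGK. Whether HLA-DRB1 reads came from other HLA genes was not tested. TAPBP lies on chromosome 6 with TAP1, HLA-B and HLA-C, none of which passed 2-fold. The 3 constitutive proteasome subunits PSMB5, PSMB6 and PSMB7 were all called lower in CAG, with log2 fold changes of -0.13, -0.29 and -0.15. The calls of PSMB5 and PSMB7 were lost without CAG replicate 2 (-0.099 and -0.137), CAG replicate 3 (-0.149 and -0.137) or PGK replicate 1 (-0.086 and -0.073), and that of PSMB5 also without PGK replicate 3 (-0.136). Both calls were lost too when scaling by library size only (-0.100 for PSMB5 and -0.115 for PSMB7). PSMB6 had -0.176 without PGK replicate 1.

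**Figure D4:**
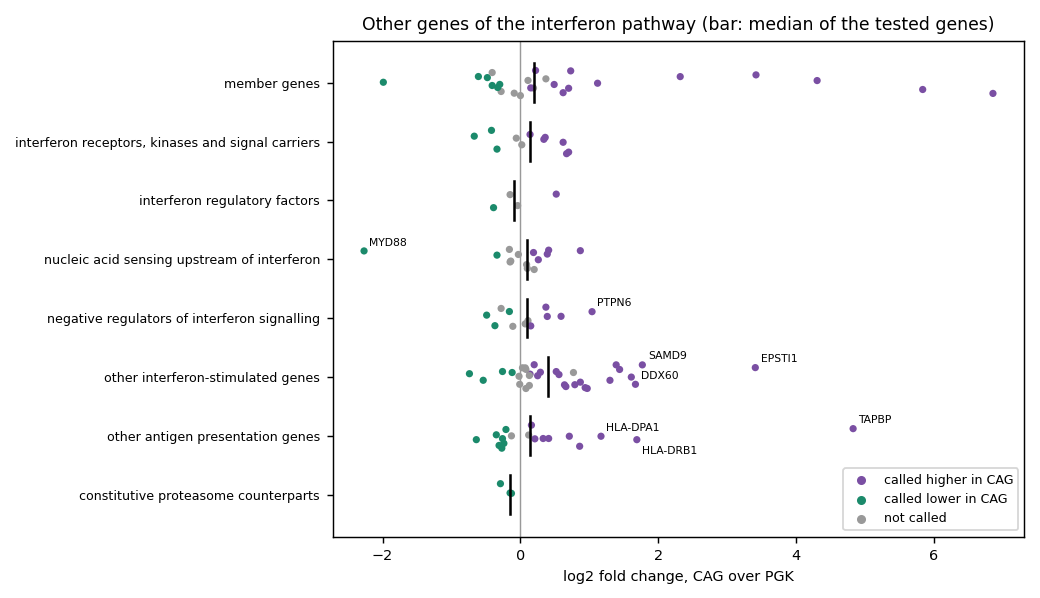
Log2 fold change, CAG over PGK, of the tested genes in the list of 40 and in 7 further pathway lists, 1 point per gene, coloured by edgeR's call, with a bar at the median. Most points lie between -1 and 1, and TAPBP, EPSTI1 and MYD88 are the named points farthest from 0 among the further lists.

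Fibroblast and epithelial markers also differed between the lines. COL1A1 and LUM, the 2 tested of 4 fibroblast markers, were called higher in CAG, and the 4 summed to 23.4 to 23.9 CPM in CAG and 18.9 to 20.3 CPM in PGK. LUM had 21, 27 and 24 counts in CAG and 6, 7 and 5 counts in PGK. Of the 5 markers taken for this cell line, KRT8, EPCAM and VIM were called higher in CAG, and KRT18 and PAX2 were not called. The 5 summed to 679 to 711 CPM in CAG and 507 to 513 CPM in PGK. Most of that sum was VIM, which is not specific to epithelium, with 631 ± 12.2 CPM in CAG and 455 ± 3.14 CPM in PGK (SD, n = 3 each). The part of these differences in the interferon genes was not tested, and in bulk RNA fewer cells that express a gene and less RNA per cell cannot be told apart.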

How the data were processed

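Polyadenylated RNA of HEK293T landing pad cells was sequenced in 6 libraries, 3 labelled CAG and 3 labelled PGK, and groups were taken from the labels. The deposited values are raw read counts of 20169 Ensembl genes, which the authors neither normalized nor pooled. The submitters' processing notes name featureCounts 2.0.3, HISAT2 2.2.1, Bowtie2 2.5.1 and cutadapt 4.6, and the hg19 build. Not given in the sources used here are what each tool did, the annotation, the strand option and the treatment of multi-mapping reads. Names, chromosomes, neighbour order, overlaps and exon lengths came from GENCODE 29, which paired 19346 rows with a symbol and left 823 without one. GENCODE 29 is built on GRCh38, so no gene coordinates are given from it. No count was found for 3535 rows.

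Genes were filtered with edgeR's filterByExpr and scaled by TMM. The contrast CAG over PGK was tested two-sided in R 4.3.3 by the robust quasi-likelihood fit of edgeR 4.0.16, and p-values were adjusted by Benjamini-Hochberg over the 13103 genes kept. A standard error is the fitted log2 change divided by the square root of its F statistic. The biological coefficient of variation was 0.0494. For a gene at 0 counts in a line the floor was 3 counts in each library, and low counts are given as ratios with 95% exact binomial intervals, which cover counting error only. P-values measure the spread between these libraries, which may be technical. No 2 libraries of a line agreed within sampling noise. The fits were tested on simulated counts.

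The members, gene lists and the rule for named genes were chosen with earlier results of these data known. Named were every member with a count, up to 3 called genes with the largest change per pathway list, IFNAR1, IFNAR2, JAK1, TYK2 and IRF3, and the 5 nearest tested genes on each side of the 2 loci. A gene that met this rule is not reported here. Members without a count, HERC6, IFNE, IFNA2, SP140, PARP14, PARP15, LIPA, USP41 and PSMB10 were chosen after their values were seen. So were HLA-DPB1, HLA-DRA, CD74 and CIITA. Alternatives were DESeq2 1.42.0, limma-voom (limma 3.58.1), scaling by library size alone or by RLE, no filter or at least 1 CPM in 3 libraries, testing against 1.5-fold, a replicate block, and leaving out each library.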

Additional observations from a re-analysis of the deposited data

How the results depend on the processing

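The counts of called genes stayed within 1.5 times under every alternative except the test against a fold of 1.5, which called 954 genes higher and 558 lower in CAG, with 7 and 1 of the 40 genes and 12 and 1 of the pathway genes. That test asks for a larger change. The median log2 fold change of the 25 genes was 0.374 with 1 CPM in 3 libraries, where fewer genes are tested, 0.154 with limma-voom, and 0.140 to 0.282 when each library was left out. Of 902 values for 70 named genes, 849 kept direction and side of the threshold, 29 lost and 9 gained the call, and 15 turned direction. B2M, not called, had -0.002 with RLE size factors, -0.004 with no filter and -0.002 with DESeq2. With each library left out, the log2 fold change ran from -0.044 to 0.029 for B2M, -0.052 to 0.526 for ISG20, -0.016 to 0.138 for ARMC9, -0.036 to 0.089 for TRIP12, -0.515 to 0.041 for DHX58 and -0.024 to 0.385 for IFITM3, and the cause was not tested. IFI27 was called without PGK replicate 1 (0.628). Deviations of same-numbered libraries had correlations of 0.10797, 0.1027 and 0.01313, and those of different-numbered libraries ran from -0.11080 to 0.00988. Whether equal numbers share a batch was not tested, and the main fit did not take them as pairs. With a replicate block 4461 genes were called higher and 4400 lower, beside 4139 and 3986 in the main fit, with 12 and 6 of the 40. Genes under 3 counts per library are below what this depth resolves.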
